A study of Mus musculus with 12 samples.

Results

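The genes for 9 growth factor receptors and 1 insulin receptor substrate, which carry extracellular growth signals to the mTOR pathway, were followed in mouse fibroblasts after mTOR inhibition. The 10 genes were chosen by name, not by their values: Insr, Igf1r, Irs1, Egfr, Erbb2, Erbb3, Pdgfra, Pdgfrb, Fgfr1 and Met. They were found on the array through the RefSeq accession of each probe, which gave 26 of 41174 probes and 10 of 17178 genes with an assigned symbol. Of these, 10 were tested on all 12 arrays and 9 on a set of 8 arrays described below.

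NIH3T3 cells, a long-established fibroblast line from mouse embryos, were grown in medium with calf serum and antibiotics. Cells were exposed for 18 h to PP242 (2 µM), to rapamycin (50 nM) or to the solvent DMSO, with 4 arrays per group from 4 separate experiments, per the series' design text. The labels are not uniform on PP242: the design text gives 2 µM and the treatment protocol gives 2 mM, and 2 µM is used here. PP242 is an inhibitor that competes with ATP for the mTOR kinase and so acts on both mTOR complexes, whereas rapamycin binds FKBP12 and acts allosterically, mainly on mTORC1. Each drug was given at a single dose and the doses differed.

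Receptor tyrosine kinases are single-pass membrane proteins that bind a growth factor outside the cell and phosphorylate tyrosines inside it. The insulin and IGF1 receptors pass their signal through IRS proteins to PI3 kinase, AKT and mTOR, and the PDGF, EGF, FGF and HGF receptors feed the same route and the RAS-ERK route. Active mTORC1 and its kinase S6K damp this input through IRS1 and GRB10, and in several cell types inhibition of PI3K, AKT or mTOR is followed by higher receptor mRNA. The comparisons address whether receptor and substrate mRNA differed in that way here.

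A level is given as log2 of the processed spot signal minus the 75th percentile of the same array, so that 1 unit is a doubling. Levels are compared between arrays for the same probe, never between probes. On 4 arrays (PP242 replicates 1 and 4, rapamycin replicate 3, DMSO replicate 2) dim probes were raised: 70.5% to 97.1% of probes were well above background there, against 55.7% to 60.4% on the other 8. The 75th percentile of the signal was 7.05 to 69.5 times the 25th on those 4 arrays, against 251 to 406 times on the other 8. Members are therefore described on the 8 arrays and again on all 12. The 8 hold PP242 replicates 2 and 3, rapamycin replicates 1, 2 and 4, and DMSO replicates 1, 3 and 4. Within the 8, replicate 4 of rapamycin and of DMSO also stood apart, with limma array weights of 0.176 and 0.187, against 1.37 to 2.23 for the other 6 arrays. Of 10 fibroblast markers, 9 were well above background on all 8 arrays. Of 6 epithelial markers, Epcam, Cdh1 and Krt18, and of 4 endothelial markers, Pecam1, Cdh5 and Tie1 were well above background on 0 of the 8, whereas Krt14, Cd3e and Tubb3 were above background on all 8.

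Promoter windows are shown for Egfr, Pdgfra and Irs1, members whose PP242 levels lay above the DMSO levels on all of the 8 arrays. Each window runs from 250 bases before to 50 bases after a transcription start taken from RefSeq (GRCm38.p6), is written 5′ to 3′ along the gene's strand, and has matches to the searched motifs in capitals.
Egfr (chr11:16751953-16752252, plus strand): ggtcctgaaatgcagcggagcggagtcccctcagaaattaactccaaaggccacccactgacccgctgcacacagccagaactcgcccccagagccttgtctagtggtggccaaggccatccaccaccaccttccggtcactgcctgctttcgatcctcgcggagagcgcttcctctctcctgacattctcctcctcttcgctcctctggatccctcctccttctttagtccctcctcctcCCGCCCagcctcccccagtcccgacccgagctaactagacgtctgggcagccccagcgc
Pdgfra (chr5:75152001-75152300, plus strand): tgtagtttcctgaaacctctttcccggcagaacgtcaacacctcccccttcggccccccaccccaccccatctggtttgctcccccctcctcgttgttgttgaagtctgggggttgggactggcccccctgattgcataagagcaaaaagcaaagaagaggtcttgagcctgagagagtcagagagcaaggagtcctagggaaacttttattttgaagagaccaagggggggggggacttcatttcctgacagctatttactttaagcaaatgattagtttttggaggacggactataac
Irs1 (chr1:82291390-82291689, minus strand): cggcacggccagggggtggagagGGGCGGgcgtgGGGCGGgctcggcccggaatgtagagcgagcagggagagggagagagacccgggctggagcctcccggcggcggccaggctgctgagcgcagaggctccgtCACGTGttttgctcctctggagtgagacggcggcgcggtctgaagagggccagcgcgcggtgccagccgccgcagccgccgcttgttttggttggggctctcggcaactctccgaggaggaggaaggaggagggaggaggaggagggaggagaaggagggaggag
The motifs searched on both strands were the FoxO motif GTAAACA, the E-box CACGTG and the GC box GGGCGG. The Egfr window held 1 GC box, whose first base lay 9 bases before the start, as CCGCCC on the gene's strand. The Irs1 window held 2 GC boxes, at 227 and 216 bases before the start, and 1 E-box at 115 bases before it. The Pdgfra window held none of the 3 motifs. For Pdgfra that start lies 929 bases inside the annotated gene, so the bases before the gene's outermost start were not searched. Windows were also read for Erbb2, Igf1r and Met (for Met 608 bases inside the gene), and the FoxO motif was in 0 of the 6 windows, against 3.65% of 32851 mouse promoters. The E-box was in the windows of Irs1 and Met and in 7.15% of those promoters. The GC box was in the windows of Egfr, Igf1r, Irs1 and Met and in 35.7% of those promoters. No window was searched for Insr, Erbb3, Pdgfrb or Fgfr1. The 6 windows ranged from 51.0% GC (Pdgfra) to 76.0% GC (Igf1r), with a median of 52.7% over all promoters.

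**Figure D1:**
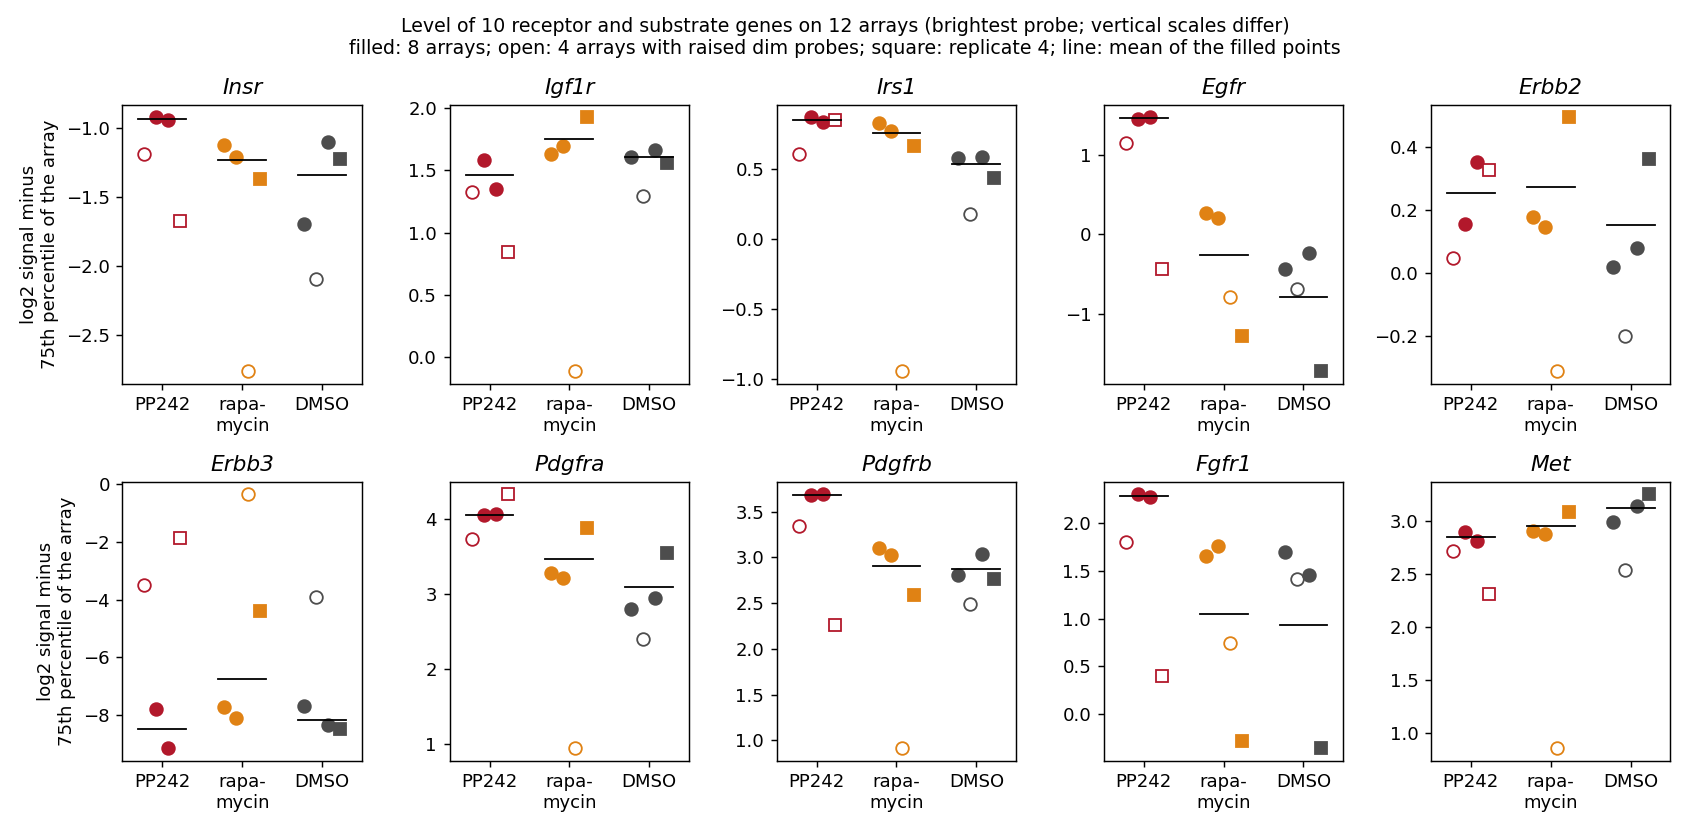
Level of each of the 10 genes on each array (vertical axis: log2 processed signal minus the array's 75th percentile, with a separate scale per gene), for PP242, rapamycin and DMSO. Filled points are the 8 arrays, open points the 4 arrays with raised dim probes, squares replicate 4, and lines the mean of the filled points; the filled PP242 points lie above all filled DMSO points for Insr, Irs1, Egfr, Pdgfra, Pdgfrb and Fgfr1.

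The mRNA of 2 receptors rose with PP242 against DMSO on the 8 arrays: Egfr, the receptor for EGF and TGF-alpha, and Pdgfrb, a receptor for PDGF-BB that marks mesenchymal cells. These were 2 of the 9 genes tested, both higher and 0 lower, and 4 of the 9 had an unadjusted p under 0.05. With this rule 26.2% of all 19628 genes tested were called, 12.9% higher and 13.3% lower, so the share of the 9 genes called was near that of all genes. With the slide as a block, limma called 0 of the 9, with 2 at an unadjusted p under 0.05. Over all 19628 genes it called 1423 with that block, and 5316 had an unadjusted p under 0.05. Among the 8 arrays PP242 and DMSO share only slide 1, which holds PP242 2, DMSO 1 and DMSO 4. There slide 2 holds no DMSO array and slide 3 no PP242 array, so treatment and slide are partly confounded on the 8 arrays. Without the block the median log2 difference was 0.41 over the 9 genes and -0.01 over all genes. On all 12 arrays 0 of the 10 genes passed limma's test, where 0.441% of 23803 genes were called, and 1 of the 10 (Egfr) had an unadjusted p under 0.05. The median there was 0.41 over the 10 genes, against 0.34 over all genes. Centring the 12 arrays on their medians put the median of all genes at -0.55 and turned Insr (-0.55), Irs1 (-0.55), Erbb2 (-0.74), Pdgfrb (-0.42) and Fgfr1 (-0.25) negative, so the signs of these genes on 12 arrays depend on the scaling. In these bulk samples, fewer cells of a type and less RNA per cell cannot be told apart.

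**Figure D2:**
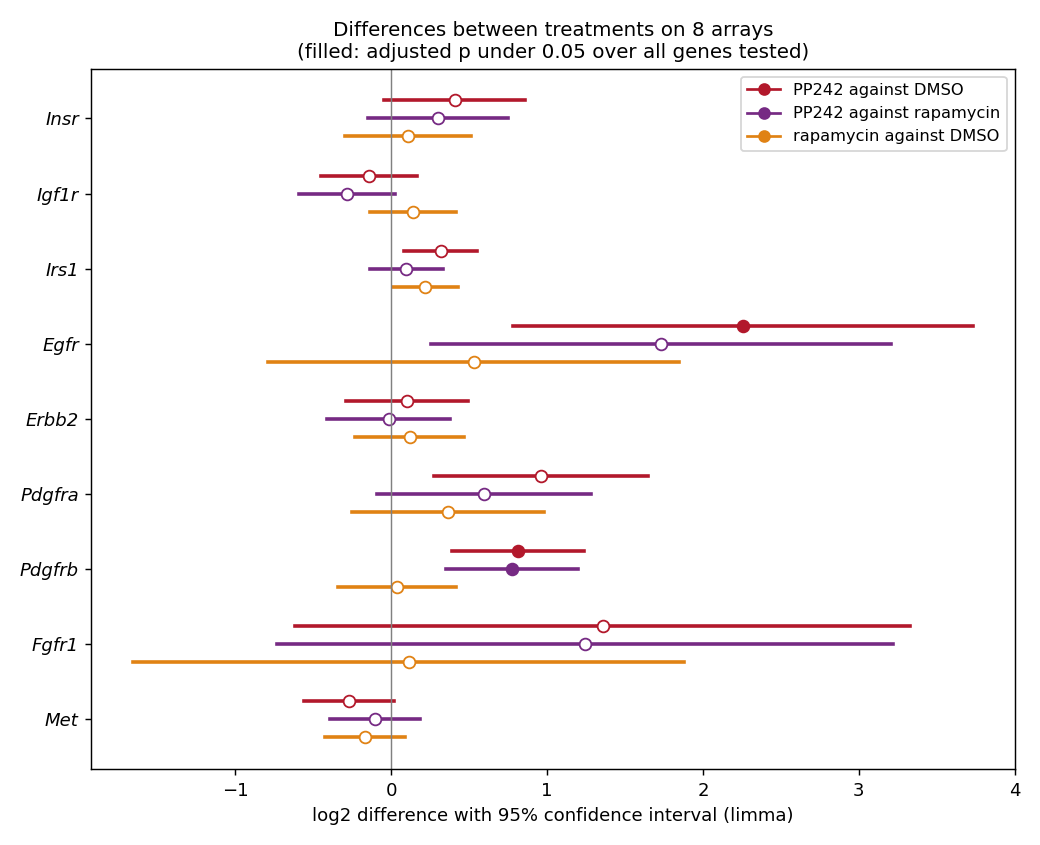
Log2 difference with its 95% confidence interval for 9 genes on 8 arrays, for PP242 against DMSO, PP242 against rapamycin, and rapamycin against DMSO. Filled points passed an adjusted p of 0.05 over all genes tested; these are Egfr (2.26) and Pdgfrb (0.81) for PP242 against DMSO and Pdgfrb (0.78) for PP242 against rapamycin.

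Insr encodes the insulin receptor. Its level was -0.92 and -0.95 on the PP242 arrays, -1.12, -1.21 and -1.37 on the rapamycin arrays, and -1.69, -1.10 and -1.22 on the DMSO arrays. Both PP242 values lay above all DMSO values, but the DMSO values spread over more than the gap between the groups. The log2 difference of PP242 from DMSO was 0.41 ± 0.19 (SE; limma, adjusted p = 0.169), and both Insr probes gave positive values, 0.41 and 0.71. The probe with 0.71 was dim: it was well above background on 5 of the 8 arrays, and not on DMSO 3 or DMSO 4. With all 12 arrays the difference on the brightest probe was 0.34 ± 0.40 (limma, adjusted p = 0.791), and -0.10 with quantile normalization. Rapamycin differed from DMSO by 0.11 ± 0.17, with a 95% interval of -0.30 to 0.51.

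Igf1r encodes the receptor for IGF1 and IGF2. Its level was 1.58 and 1.35 with PP242, 1.63, 1.69 and 1.93 with rapamycin, and 1.61, 1.66 and 1.56 with DMSO. The PP242 and DMSO groups overlapped, and the rapamycin arrays all lay above the PP242 arrays. PP242 differed from DMSO by -0.14 ± 0.13 (limma, adjusted p = 0.470), with a 95% interval of -0.45 to 0.16, and by -0.25 ± 0.42 (adjusted p = 0.802) on all 12 arrays. Rapamycin differed from DMSO by 0.14 ± 0.11 (limma, adjusted p = 0.682). These values are from the brightest Igf1r probe. All 3 Igf1r probes gave positive rapamycin differences from DMSO, from 0.14 to 0.40. On the probes other than the brightest, all rapamycin arrays lay above all DMSO arrays. For PP242 against DMSO 1 of the 3 probes was positive (0.17) and 2 were negative.

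Irs1 encodes the docking protein that links both receptors to PI3 kinase. On its brightest probe it had levels of 0.87 and 0.83 with PP242, 0.83, 0.77 and 0.66 with rapamycin, and 0.58, 0.59 and 0.44 with DMSO. All PP242 and all rapamycin values lay above all DMSO values. The differences from DMSO were 0.32 ± 0.10 for PP242 (adjusted p = 0.0573) and 0.22 ± 0.09 for rapamycin (adjusted p = 0.363), and neither passed limma's test. The PP242 difference on all 12 arrays was 0.35 ± 0.38 (adjusted p = 0.791). The other Irs1 probe read -4.18 and -4.30 with PP242, -4.15 and -4.28 on the 2 rapamycin arrays with a value, and -4.37, -2.37 and -4.42 with DMSO. DMSO 3 alone lay above the PP242 arrays, and the differences from DMSO were -0.52 ± 0.65 for PP242 and -0.49 ± 0.65 for rapamycin. Both Irs1 probes gave positive PP242 differences on all 12 arrays, 0.35 and 0.48.

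Egfr had the largest PP242 difference from DMSO among the 9 genes on the 8 arrays. Its level was 1.46 and 1.47 on the PP242 arrays, 0.27, 0.21 and -1.28 on the rapamycin arrays, and -0.43, -0.23 and -1.72 on the DMSO arrays. The PP242 arrays were nearly alike and lay above every rapamycin and DMSO array, and replicate 4 of rapamycin and of DMSO lay far below the other arrays of their groups. The log2 difference of PP242 from DMSO was 2.26 ± 0.61 (limma, adjusted p = 0.0384), a 4.78-fold higher level with a 95% interval of 1.72 to 13.3. All 4 Egfr probes, which represent 2 transcript accessions, gave positive values, from 1.46 to 2.26.

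The size of the Egfr difference depended on the arrays used. On all 12 arrays it was 1.68 ± 0.54 (limma, adjusted p = 0.262): the raised PP242 arrays read 1.14 and -0.43, the raised rapamycin array -0.79 and the raised DMSO array -0.69. Without replicate 4 of rapamycin and DMSO, a choice made after the data were seen, the 6 arrays left gave 1.79 ± 0.09 (adjusted p = 0.000623). Leaving out any single one of the 8 arrays other than rapamycin 4 put the adjusted p above 0.05, from 0.0534 to 0.165, with differences of 1.79 to 2.54. With the slide as a block it was 2.00 (limma, adjusted p = 0.201). The 8 arrays include DMSO 4 but not PP242 4. With the replicate number as a block they gave a smaller Egfr difference than without a block, and it passed limma's test. Within the slides of all 12 arrays, PP242 minus DMSO was 2.53, 1.21 and 1.37 on slides 1, 2 and 3, where the median over all genes was -0.03, 0.07 and 0.38. On slide 1 this set PP242 2 against the mean of DMSO 1 and the low DMSO 4. The values of slides 2 and 3 include raised arrays: PP242 4 and DMSO 2 on slide 2, and PP242 1 on slide 3.

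Erbb2 encodes the EGF receptor family member without a known ligand of its own. It read 0.16 and 0.35 with PP242, 0.18, 0.15 and 0.49 with rapamycin, and 0.02, 0.08 and 0.36 with DMSO. All 3 groups overlapped. The PP242 difference from DMSO was 0.10 ± 0.16 (limma, adjusted p = 0.697), with a 95% interval of -0.29 to 0.49, so a doubling lay outside the interval. It was 0.16 ± 0.24 (adjusted p = 0.795) on all 12 arrays.

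Erbb3 encodes the neuregulin receptor whose own kinase is weak. Its brightest probe was well above background on 1 of the 8 arrays, rapamycin replicate 4, so no level could be compared on them. It passed the filter on all 12 arrays through the 4 arrays with raised dim probes and that array. There it read -3.50, -7.80, -9.14 and -1.87 on PP242 arrays 1 to 4, -7.73, -8.11, -0.34 and -4.40 on rapamycin arrays 1 to 4, and -7.68, -3.92, -8.34 and -8.49 on DMSO arrays 1 to 4. The highest values were those of the raised arrays, and the difference of PP242 from DMSO was 1.53 ± 2.05 (limma, adjusted p = 0.791).

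The PDGF receptors are the characteristic growth factor receptors of fibroblasts. Pdgfrb had levels of 3.68 and 3.69 with PP242, 3.10, 3.03 and 2.59 with rapamycin, and 2.81, 3.04 and 2.77 with DMSO. The PP242 arrays lay above every other array, and the rapamycin and DMSO arrays overlapped. The log2 difference of PP242 from DMSO was 0.81 ± 0.18 (limma, adjusted p = 0.0178), a 1.76-fold higher level with a 95% interval of 1.31 to 2.36. Pdgfrb had a single probe.

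The Pdgfrb call was lost on all 12 arrays, where the difference was 0.47 ± 0.50 (limma, adjusted p = 0.791) and the raised PP242 arrays read 3.35 and 2.26. It was kept in 5 of the 8 fits that left out 1 array. Without DMSO 1, PP242 2 or PP242 3 the adjusted p was 0.0543, 0.0965 and 0.106, with differences of 0.78, 0.82 and 0.81. With the slide as a block it was 0.74 (adjusted p = 0.132), and within slides 1, 2 and 3 of all 12 arrays PP242 minus DMSO was 0.89, 0.49 and 0.31. The value on slide 3 lay below the median of all genes there, 0.38, and the values of slides 2 and 3 include raised arrays. The call on the 8 arrays was also lost with the replicate number as a block. The 6 arrays gave a difference of 0.76 ± 0.09 (limma, adjusted p = 0.00439).

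Pdgfra, the receptor that also binds PDGF-AA, had levels of 4.05 and 4.07 with PP242, 3.28, 3.22 and 3.89 with rapamycin, and 2.80, 2.94 and 3.55 with DMSO. On this gene's brightest probe the PP242 arrays were again the highest. There replicate 4 of rapamycin and of DMSO lay above the other arrays of their groups. On the other Pdgfra probe rapamycin 4 (-2.12) lay above the PP242 arrays (-2.37 and -2.17), and DMSO 4 (-3.36) was the lowest DMSO array. The difference of PP242 from DMSO was 0.96 ± 0.29 (limma, adjusted p = 0.0510), which did not pass, and both probes gave 0.96 to 0.97. On all 12 arrays the 4 PP242 values (3.73 to 4.33) lay above the 4 DMSO values (2.40 to 3.55), with a difference of 1.12 ± 0.56 (adjusted p = 0.600). Non-overlap of PP242 above DMSO was seen for 2 of the 10 genes on 12 arrays, Pdgfra and Irs1, against 9.78% of all genes. On the 6 arrays the Pdgfra difference was 1.19 ± 0.07 (adjusted p = 0.000863).

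Fgfr1, the FGF receptor usual in mesenchymal cells, read 2.31 and 2.28 with PP242, 1.66, 1.76 and -0.28 with rapamycin, and 1.70, 1.46 and -0.36 with DMSO. PP242 again lay above all other arrays, and replicate 4 of rapamycin and DMSO lay far below. The difference of PP242 from DMSO was 1.36 ± 0.82 (limma, adjusted p = 0.286) on the 8 arrays and 0.71 ± 0.10 (adjusted p = 0.00607) on the 6. The 8 arrays include DMSO 4 but not PP242 4. With the replicate number as a block they also gave 0.71, which passed limma's test. On all 12 arrays the difference was 0.64 ± 0.63 (adjusted p = 0.791), and the raised PP242 arrays read 1.80 and 0.40. All 3 Fgfr1 probes gave positive values on the 8 arrays, from 1.27 to 1.50.

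Met, the receptor for hepatocyte growth factor, was the only member besides Igf1r with a negative PP242 difference from DMSO on the 8 arrays. It read 2.90 and 2.81 with PP242, 2.91, 2.88 and 3.09 with rapamycin, and 2.99, 3.14 and 3.26 with DMSO. Both PP242 values lay just below all DMSO values. The difference was -0.27 ± 0.12 (limma, adjusted p = 0.149), and all 3 probes gave negative values, from -0.58 to -0.27. It was -0.29 ± 0.46 (adjusted p = 0.797) on all 12 arrays.

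By the brightest probes of the 9 genes on the 8 arrays, PP242 lay wholly above DMSO for 6 genes and wholly below it for 1 (Met). Over all genes 58.9% did not overlap in one direction or the other, 29.7% above and 29.2% below.

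**Figure D3:**
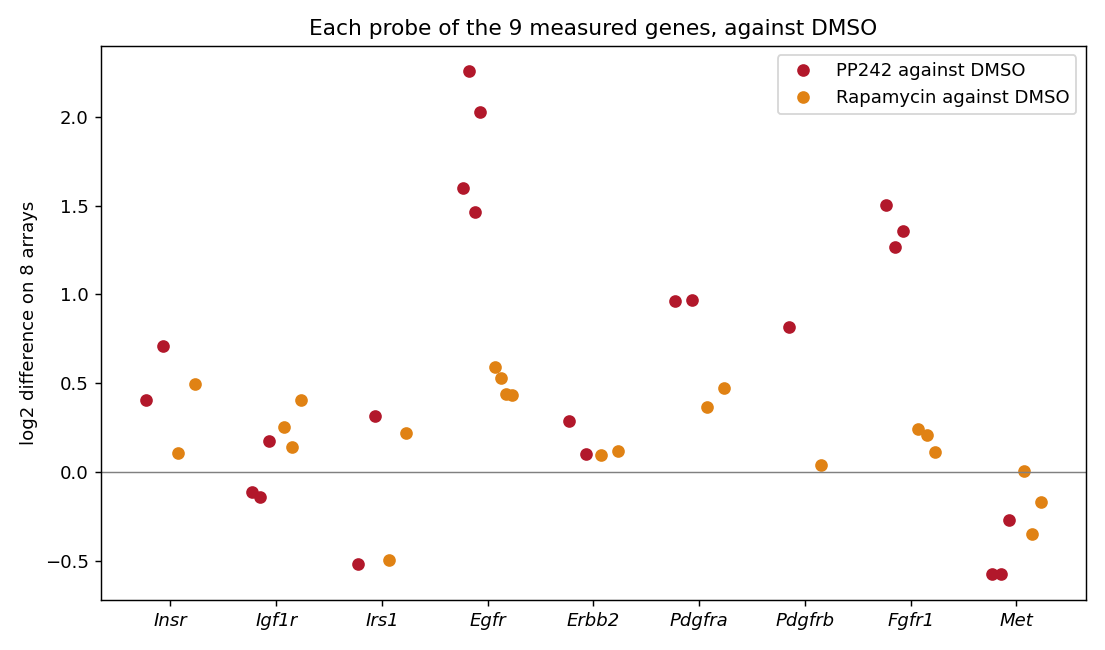
Log2 difference from DMSO on 8 arrays for each probe past the filter, by gene, for PP242 and for rapamycin. The 4 Egfr probes lie between 1.46 and 2.26 for PP242, the 3 Fgfr1 probes between 1.27 and 1.50, and the 2 Irs1 probes on opposite sides of 0.

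Replicate 4 marked the Egfr and Fgfr1 values with both rapamycin and DMSO. Replicate 4 minus the mean of the other 2 arrays of its group was -1.53 with rapamycin and -1.39 with DMSO for Egfr. For Fgfr1 it was -1.99 with rapamycin and -1.94 with DMSO. For the brightest Pdgfra probe it was 0.64 with rapamycin and 0.67 with DMSO. On the other Pdgfra probe DMSO 4 was instead the lowest DMSO array. No PP242 replicate 4 is among the 8 arrays; the raised PP242 replicate 4 also had the lowest Egfr and Fgfr1 values of its group and the highest Pdgfra value. The part of replicate 4 in the differences was not tested beyond the fits with and without these arrays and the fits with the replicate number as a block.

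On the 6 arrays, 5 of the 9 genes passed for PP242 against DMSO: Irs1 (0.27 ± 0.05, limma adjusted p = 0.0157), Egfr, Pdgfra, Pdgfrb and Fgfr1, all higher. In that fit 9420 of 19110 genes were called. These groups hold 2 arrays each, and the arrays left out were those with the lowest weights, so the spread in this fit is that of the most similar arrays.

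**Figure D4:**
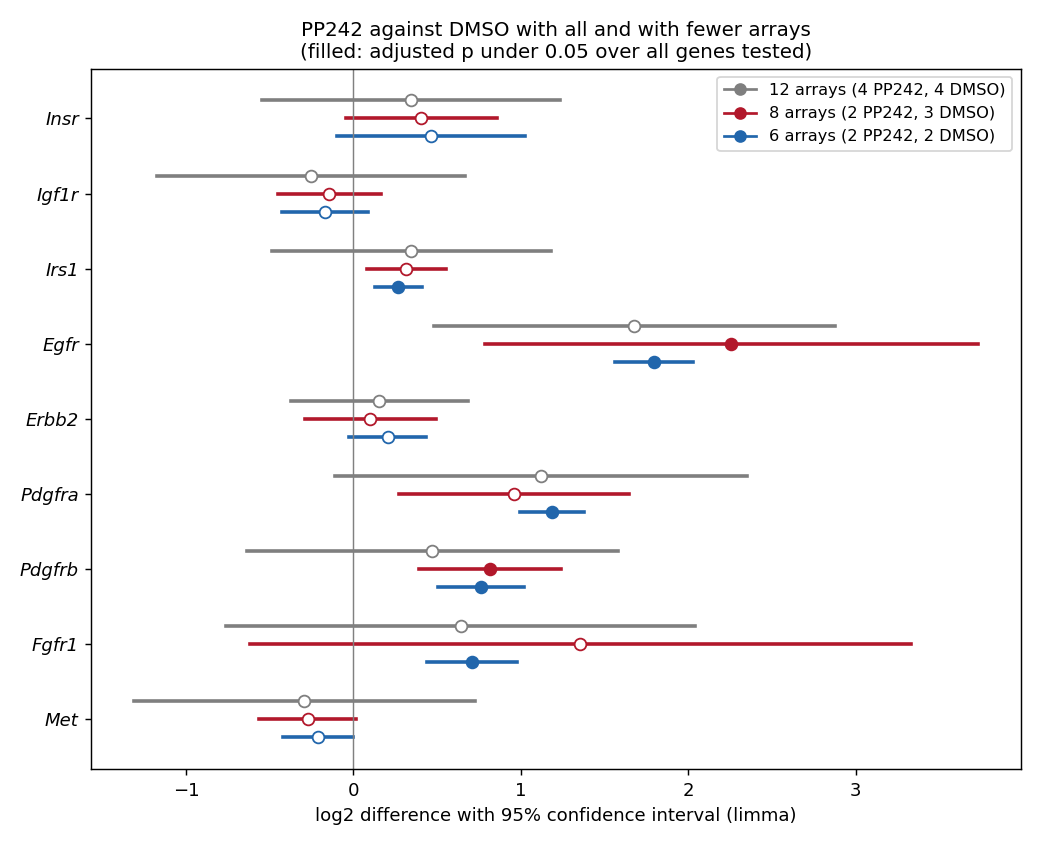
Log2 difference of PP242 from DMSO with its 95% confidence interval for 9 genes, fitted on 12, 8 and 6 arrays. The estimates for Egfr are 1.68, 2.26 and 1.79 and those for Fgfr1 are 0.64, 1.36 and 0.71; filled points passed an adjusted p of 0.05 over all genes tested.

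Rapamycin against DMSO gave no called member. On the 8 arrays limma called 0 of 9 genes, with 1 (Irs1) at an unadjusted p under 0.05, and 0.056% of all genes. On 12 arrays it called 0 of 10, with 0 at an unadjusted p under 0.05, and 0% of all 23803 genes, of which 482 had an unadjusted p under 0.05. Rapamycin differed there by 0.37 ± 0.54 for Egfr, -0.09 ± 0.56 for Pdgfra and -0.36 ± 0.50 for Pdgfrb. By the brightest probe of each gene, only Irs1 had groups that did not overlap on the 8 arrays. It lay wholly higher with rapamycin, as 8.44% of all genes did. The Igf1r probes other than the brightest also lay wholly higher with rapamycin. The 95% intervals on the 8 arrays still held sizeable differences: Egfr was 0.53 with an interval of -0.79 to 1.85, Pdgfra 0.36 with -0.25 to 0.98, and Fgfr1 0.11 with -1.65 to 1.88. The intervals were narrower for Pdgfrb (-0.34 to 0.42), Met (-0.43 to 0.09) and Erbb2 (-0.23 to 0.47). On the 6 arrays Egfr (0.57 ± 0.09, adjusted p = 0.0353) and Pdgfra (0.38 ± 0.07, adjusted p = 0.0471) passed limma's test, where 2143 of 19110 genes did.

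Set directly against rapamycin, PP242 gave a higher level of 1 of the 9 genes, Pdgfrb, with 2 at an unadjusted p under 0.05. Over all genes 14.1% were called, 6.71% higher and 7.35% lower. The Pdgfrb difference was 0.78 ± 0.18 (limma, adjusted p = 0.0344), and on slides 1 and 2, which hold 1 array of each drug among the 8, it was 0.58 and 0.66. Of all 12 arrays, slides 2 and 3 include the raised ones. Within slides 1, 2 and 3 of the 12 the Pdgfrb difference was 0.58, -0.05 and 1.59, where the median over all genes was 0.02, 0.22 and 0.45. That call was kept in 2 of the 8 fits that left out 1 array, without DMSO 4 and without rapamycin 4. In the other 6 the adjusted p was 0.0513 to 0.186, and with the slide as a block it was 0.161. Egfr differed by 1.73 ± 0.61 (adjusted p = 0.119), with 1.18 and 1.26 on slides 1 and 2.

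By the brightest probes, PP242 lay wholly above rapamycin for 6 of the 9 genes and wholly below it for 1, Igf1r. Of all genes 53.5% did not overlap, 28% above and 25.5% below. Igf1r differed by -0.28 ± 0.13 (limma, adjusted p = 0.203) and Pdgfra by 0.60 ± 0.29 (adjusted p = 0.228). On the 6 arrays Egfr (1.22, adjusted p = 0.00231), Pdgfra (0.81, adjusted p = 0.00349), Pdgfrb (0.62, adjusted p = 0.0117) and Fgfr1 (0.58, adjusted p = 0.0156) were higher with PP242 in limma's fit, which called 6858 of 19110 genes. On all 12 arrays limma called 0 of the 10 genes, with 1 (Egfr) at an unadjusted p under 0.05, and 0% of all 23803 genes, of which 937 had an unadjusted p under 0.05. PP242 differed from rapamycin there by 1.31 ± 0.54 for Egfr, 1.21 ± 0.56 for Pdgfra and 0.83 ± 0.50 for Pdgfrb (adjusted p = 1.00 for each). These comparisons share arrays with the comparisons against DMSO, and the drugs were given at different doses.

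Other genes around the receptors were read in PP242 against DMSO on the 8 arrays, from lists chosen with earlier results known. Of 25 other receptor tyrosine kinases tested, 1 rose, 1 fell and 23 did not pass, where 12.9% of all genes rose and 13.3% fell. Ephb3, an ephrin receptor, was 0.99 ± 0.28 higher (limma, adjusted p = 0.0460), and Csf1r, the receptor for colony stimulating factor 1, fell by 0.37 on the log2 scale (adjusted p = 0.0331). Ryk, a receptor for WNT ligands, differed by 0.61 and did not pass (adjusted p = 0.0912). The median of the list was 0.17, against -0.01 over all genes.

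Of the adaptors and PI3K subunits that relay receptor signals, 3 of 21 rose and 3 fell, near the shares over all genes (12.9% and 13.3%), with a list median of -0.02. Gab1, a docking protein for EGF and HGF receptors, read -1.51 and -1.42 with PP242, -2.32, -2.10 and -2.21 with rapamycin, and -2.52, -2.34 and -2.25 with DMSO. The PP242 arrays lay above all others, and the difference from DMSO was 0.90 ± 0.12 (limma, adjusted p = 0.00339). Pdpk1, the kinase that activates AKT at the membrane, rose by 0.54 ± 0.08 (adjusted p = 0.00584). Ptpn11, the phosphatase SHP2, fell by 0.59 on the log2 scale (adjusted p = 0.00572), and Pik3r2, a PI3K regulatory subunit, differed by 0.29 (adjusted p = 0.0816).

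Of 23 genes listed as dampers of receptors or their substrates, the mRNA of 1 rose and of 1 fell with PP242, against 12.9% and 13.3% of all genes. Whether each listed gene damps receptors in these cells was not tested. Lrig2, a transmembrane LRIG protein, was 0.89 ± 0.09 higher (limma, adjusted p = 0.00146). Its relative Lrig1, which promotes the degradation of EGF receptor family members, fell by 0.49 on the log2 scale (adjusted p = 0.0153). Nedd4, a ubiquitin ligase, differed by 0.38 and did not pass (adjusted p = 0.0934). The list median was -0.09.

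In the IGF axis 1 of 8 genes tested fell and 0 rose, so the share that fell was near the 13.3% of all genes. Stc2, a secreted inhibitor of the protease that frees IGFs from their binding proteins, read -0.43 and -0.29 with PP242, 0.18, -0.18 and -0.17 with rapamycin, and 0.86, 0.67 and 0.70 with DMSO. The groups did not overlap, and the PP242 difference from DMSO was -1.11 ± 0.14 (limma, adjusted p = 0.00315), while that of rapamycin was -0.80 ± 0.13 (adjusted p = 0.102). Igfbp7, a secreted binding protein, differed by -0.66 with PP242 and did not pass (adjusted p = 0.352). The list median was -0.54 on the 8 arrays and had the opposite sign on all 12, 0.71, where that of all genes was 0.34.

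Among other ligands of these receptors 1 of 11 genes tested fell and 0 rose, against 13.3% and 12.9% of all genes. Fgf2, an FGF that activates FGFR1, read -5.08 and -5.29 with PP242, -3.59, -3.48 and -3.41 with rapamycin, and -3.84, -3.98 and -4.10 with DMSO. PP242 lay below and rapamycin above all DMSO arrays. The difference from DMSO was -1.21 ± 0.13 for PP242 (limma, adjusted p = 0.00141) and 0.48 ± 0.11 for rapamycin (adjusted p = 0.182), and PP242 was lower than rapamycin by -1.69 (adjusted p = 0.00111). On all 12 arrays the PP242 difference from DMSO for Fgf2 had the opposite sign, 0.44 (adjusted p = 0.897). Pdgfa, a PDGF chain, differed by -0.13 with PP242 and did not pass (adjusted p = 0.477). The list median was -0.37 on the 8 arrays and 0.12 on all 12.

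Of these neighbours of the receptors, Gab1, Lrig2, Stc2 and Fgf2 kept their PP242 calls in all 8 fits that left out 1 array and with the slide as a block (limma, adjusted p = 0.0486, 0.0352, 0.0410 and 0.0346). The calls of Ephb3, Csf1r, Lrig1, Pdpk1 and Ptpn11 were lost with the slide as a block (adjusted p = 0.227, 0.242, 0.124, 0.0760 and 0.0682). The Fgf2 call, on a dim probe, was lost with normexp background correction, at -0.60 (limma, adjusted p = 0.0721). Leaving out 1 array ended the Pdpk1 call without PP242 3 (0.52, adjusted p = 0.0586), the Ptpn11 call without PP242 2 (-0.57, adjusted p = 0.0542), and the Lrig1 call without DMSO 3, PP242 2 or PP242 3 (adjusted p = 0.0502, 0.0813 and 0.113). The Ephb3 call was kept only without rapamycin 4, and the Csf1r call only without DMSO 4 or rapamycin 4; in the other fits the adjusted p was 0.0571 to 0.194 for Ephb3 and 0.0692 to 0.203 for Csf1r.

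In PP242 against rapamycin on the 8 arrays, 3 of the 21 adaptors and PI3K subunits rose and 1 fell. Of the 23 genes listed as dampers 1 rose, and 2 of the 11 ligands fell, where 6.71% of all genes rose and 7.35% fell. Limma called 0 of the 25 other receptor tyrosine kinases and 0 of the 8 IGF axis genes there, with 2 and 1 at an unadjusted p under 0.05. In rapamycin against DMSO on the 8 arrays limma called 0 genes of each of these 5 lists, with 1 to 3 per list at an unadjusted p under 0.05. On 12 arrays it called 0 in every list and comparison, with 0 to 2 per list at an unadjusted p under 0.05; PP242 differences from DMSO there were 0.83 for Gab1, 0.85 for Lrig2 and -0.70 for Stc2.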

How the data were processed

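Expression was measured on 12 single-colour Agilent mouse arrays, 4 per group, with groups and replicate numbers taken from the sample titles. Per the labels' protocols, column-purified total RNA was amplified with a whole transcriptome kit and labelled with Cy3. Deposited per array was a scanner file with a linear intensity for each of 45018 spots (43379 gene spots of 41174 probes and 1639 controls). Per the file headers, Agilent Feature Extraction 10.5.1.1 had subtracted background from that intensity, whereas the submitters' processing notes name version 10.1. A deposited table of the series holds log2 values with a column median of 8.54 to 8.56, ranked as the spots' median intensity. Its direction is that of signal, the sources used here do not give its normalization between arrays, and it served only as an alternative.

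Log2 of the processed signal minus each array's 75th percentile was used. Outlier spots (7921, 1.52%) were left out, no spot was saturated, and spots of a probe were averaged. The filter asked for a signal well above background on 4 or more of 12 arrays, or 2 or more of 8, and the probe with the highest mean over the 12 arrays stood for its gene. Of 26382 probes with a RefSeq accession, 24844 matched 1 current symbol, 0 had several and 16330 of all probes had none. Limma 3.58.1 in R 4.3.3 (lmFit, eBayes) was fitted to all 3 groups, two-sided, with Benjamini-Hochberg adjustment over all genes and a threshold of 0.05; the 8 arrays are those whose 75th percentile is over 100 times the 25th. Fits were checked on simulated data. Standard errors are limma's, and all adjusted p-values are from limma; the number of arrays limits the precision. A mean over a gene's probes, an alternative, was taken after centring each probe, since missing spots would otherwise shift it.

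Named were all 10 genes; from each list up to 3 passing genes by adjusted p and the 1 highest that did not pass; and, for 3 of the genes, the 3 genes most correlated with each. The members, lists, tests and the set of 8 arrays were chosen with earlier results of these data known. Alternatives were other normalizations, background correction, filters, probe summaries, blocks, array weights and leaving out each array; the set of 6 arrays was added after seeing the data. Some pathway genes are not analysed here. Python 3.11.15, pandas 2.3.3, numpy 2.4.6 and the R package data.table (version 1.17.8) were also used.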

Additional observations from a re-analysis of the deposited data

Results flagged for a closer look

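In 6 of 30 groups of 4 arrays, 1 per gene and treatment, the highest or lowest array lay farther from the rest than Dixon's 95% limit allows, where chance gives about 1 in 20 groups. Rapamycin replicate 3, an array with raised dim probes, was the lowest array in 4 of the 6. It read -2.76 for Insr, against -1.37 to -1.12 on the other rapamycin arrays. For Igf1r it read -0.11, against 1.63 to 1.93. For Irs1 it read -0.94, against 0.66 to 0.83, and for Met it read 0.86, against 2.88 to 3.09. PP242 replicate 1, also with raised dim probes, read 0.61 for Irs1, against 0.83 to 0.87 on the other PP242 arrays. DMSO replicate 4, which is among the 8 arrays, read -0.36 for Fgfr1, against 1.42 to 1.70 on the other DMSO arrays.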

How the results depend on the processing

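The cause of the changes below was not tested. On 12 arrays the 0 members called for PP242 against DMSO became 5 with array weights, 1 with only the 2 groups compared and 2 on 8 arrays; for PP242 against rapamycin, 0 became 3 with array weights and 1 on 8 arrays. On 8 arrays the 2 members called for PP242 against DMSO became 4 with quantile normalization, the deposited table, array weights, a mean over probes, a filter on all arrays or an intensity trend, 1 with median centring or no filter, 5 on 6 arrays, and 0 with the slide as a block or on 12 arrays. Of all 19628 genes, 5141 were called in the main fit there, 8975 with array weights and 1423 with the slide as a block. Quantile normalization, the deposited table, a mean over probes and an intensity trend called 4499 to 5577. Median centring called 4120, no filter 3725 of 32678, a filter on all arrays 5367 of 15898 and the 6 arrays 9420 of 19110. For rapamycin against DMSO 0 became 2 on 6 arrays, where 2143 of 19110 genes were called. For PP242 against rapamycin 1 became 3 with array weights, 4 on 6 arrays, and 0 with median centring, no filter, the slide as a block, only the 2 groups compared or on 12 arrays. Of all genes, 2759 of 19628 were called in that main fit, 7130 with array weights and 6858 of 19110 on 6 arrays. Median centring called 1758 and no filter 1658 of 32678. The slide as a block called 519, and only the 2 groups compared 1920. Leaving out each array in turn gave 0 to 1 members called (PP242 against DMSO) and 0 to 0 (both others) on 12 arrays. On 8 arrays it gave 0 to 4 (PP242 against DMSO), 0 to 0 (rapamycin against DMSO) and 0 to 1 (PP242 against rapamycin). For PP242 against DMSO the 1 came without rapamycin 3 (3945 of 20134 genes called) and the 4 without rapamycin 4 (6217 of 19279).

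Median centring on 12 arrays turned the sign of 5 members and moved the median of all genes for PP242 against DMSO to -0.55, against 0.34 with the 75th percentile: Erbb2 -0.74, Fgfr1 -0.25, Insr -0.55, Irs1 -0.55 and Pdgfrb -0.42. Insr also turned with quantile normalization (-0.10) and in the deposited table (-0.032). On 8 arrays, averaging all probes of a gene turned Irs1 to -0.10 for PP242 and -0.11 for rapamycin against DMSO. For rapamycin against DMSO Fgfr1 turned with the slide as a block (-0.041) and Pdgfrb with median centring (-0.064). Leaving out arrays in that comparison gave -0.070 to 0.23 for Insr, -0.53 to 0.78 for Fgfr1 and -0.060 to 0.20 for Pdgfrb. Erbb2 in PP242 against rapamycin, near 0, turned to 0.037 (median centring), 0.087 (mean of probes), 0.019 (slide as a block), 0.057 (replicate block), 0.081 (array weights) and 0.093 (6 arrays), and ranged from -0.12 to 0.093 without 1 array. Over all results for single genes, 932 values under alternatives kept direction and side of the threshold, 52 passed newly, 67 no longer passed and 26 turned.

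Deviations of same-numbered arrays from their group means correlated at -0.89 to 0.78 on 12 arrays and -0.25 to 0.62 on 8. The 0.62 was that of DMSO 4 and rapamycin 4. Deviations within groups this small are tied to each other, so these values cannot decide whether the numbers pair the samples. The labels do not say that a number marks a shared experiment, and the main fits left the samples unpaired. With the replicate block on 8 arrays 3 members were called for PP242 against DMSO (Egfr 1.75, Fgfr1 0.71, Pdgfra 1.17) and 1 for PP242 against rapamycin (Egfr 1.20). Of all 19628 genes, that block called 3975 and 986 in these comparisons. On 12 arrays the block called 0 members and 0 genes. The Pdgfrb calls on 8 arrays were lost with it, at 0.68 against DMSO (adjusted p = 0.0694) and 0.63 against rapamycin (adjusted p = 0.107). Only 2 PP242 arrays remain among the 8, which limits all comparisons with PP242, and levels of dim probes such as Erbb3 are bounded by background.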

Other observations

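Across the 8 arrays, Egfr and Pdgfrb had a Pearson r of 0.94, Egfr and Fgfr1 of 0.92, and Irs1 and Met of -0.90. These values describe 8 arrays that share 3 slides, 3 treatments and the low values of replicate 4. Among 12330 genes with a symbol, those most like Egfr over the same arrays were Ms4a4b (r of 0.998), Plin3 (0.997) and Slc31a2 (0.997). Those most like Fgfr1 were Aif1l (0.999), Casp4 (0.999) and Dpp7 (0.998), and those most like Pdgfrb were AU040320 (0.994), Svil (0.989) and Tbc1d5 (0.988).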
